A study of Mus musculus with 11 samples.

Results

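The levels of 28 genes of cholesterol synthesis and its control by SREBP2 were followed in mouse bone marrow-derived macrophages treated with hemin. They were the rows of the deposited expression table whose gene name was on a list of synthesis enzymes, SREBP2 regulators and SREBP2 targets. No expression value is part of that rule, but the list was chosen with earlier results of these data known. Of the 25121 genes in that table, it names 28. Of these, 9 belong to the mevalonate arm (with the enzymes that make its acetyl-CoA and its prenyl products), 12 to the sterol arm, 4 to the control of SREBP2, and 3 to sterol transport and esterification. The macrophages grew in the upper insert of a Transwell above primary renal proximal tubular epithelial cells, so that soluble factors but not cell bodies were shared. Every culture received TGF-β1 at 5 ng/mL to set up a profibrotic environment, and 5 of the 11 also received hemin, the oxidised form of heme, at 10 µM. After 72 h the macrophages alone were taken for poly(A)-selected RNA sequencing, with 6 libraries of TGF-β1 alone (replicates 1 to 6) and 5 of TGF-β1 and hemin (replicates 2 to 6). There was no culture without TGF-β1 or with hemin alone, and no strain, sex or age of the mice is stated in the labels.

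Cells build cholesterol from acetyl-CoA. The mevalonate arm runs from acetyl-CoA to farnesyl diphosphate, from which prenyl groups, dolichol and squalene branch, and the sterol arm turns squalene into lanosterol and then, by reduction, demethylation and isomerisation steps, into cholesterol. The transcription factor SREBP2, bound to its escort SCAP, is held in the endoplasmic reticulum by the INSIG proteins when sterols are plentiful. When sterols fall, SREBP2 travels to the Golgi, is cut and switches on most genes of both arms. In macrophages, which take up cell debris and lipoproteins, surplus cholesterol is esterified by SOAT1 and stored in droplets or exported.

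Total counts lay between 65.5 and 71.5 M per TGF-β1 library and between 66.7 and 96.6 M per hemin library, where replicates 5 and 6 were the deepest. Hmox1, the heme-degrading enzyme that heme induces, went from 1528 ± 88.9 to 7483 ± 179 CPM (mean ± SD, n = 6 and 5), 4.90-fold higher (log2 change of 2.29 ± 0.049, SE; adjusted p = 7.82e-14 in edgeR), in the direction the labels imply. TGF-β1 replicate 2 stood apart in ribosomal RNA, with Rn18s-rs5 at 14735 FPKM against 1197 to 3817 in the other libraries. All 6 macrophage markers (Adgre1, Csf1r, Cd68, Lyz2, Itgam and Mertk) were present, summing to 3803 to 5750 FPKM with TGF-β1 alone and 4628 to 5445 with hemin. Cd68 and Adgre1 were higher with hemin (log2 changes 0.33 and 0.17, adjusted p = 0.00139 and 0.00893 in edgeR), without overlap between groups. The other 4 macrophage markers did not pass. Of 8 renal epithelial markers, 7 were measured and summed to 5.24 to 8.61 FPKM and, lower, to 2.25 to 4.40 FPKM with hemin, a difference that came from Cdh1 at 5.39 and 1.95 FPKM; Slc34a1 was not analysed here. Of the 5 renal markers tested, Cdh1 was lower (log2 change -1.36; adjusted p = 1.77e-06 in edgeR), while Cdh16, Lrp2 and Pax8 had positive log2 changes of 1.01, 0.73 and 0.62 that did not pass. Fibroblast markers, 6 of 6, summed to 38.1 to 93.2 and 29.8 to 53.0 FPKM. None of the 5 tested passed, with 3 negative and 2 positive log2 changes. The largest were those of Col1a1 and Col1a2, at -0.71 and -0.60 (adjusted p = 0.0583 and 0.0840 in edgeR). Neutrophil markers, 5 of 6, summed to 5.83 to 7.59 and 4.85 to 6.17 FPKM, nearly all S100a8, and 2 of 4 dendritic cell markers summed to at most 0.0547 FPKM. Mpo, Elane and Camp were at 0 in every TGF-β1 library, and no measured marker was at 0 in all 11. The part of these other cell types in the results was not tested. In bulk RNA, fewer cells of a type and less RNA per cell cannot be told apart.

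With hemin the 28 genes split into small rises and small falls. Levels are given as CPM, read counts scaled to a common library total with TMM factors, which compare 1 gene between libraries, and as FPKM, which also divide by transcript length, wherever genes are compared with each other. All 28 were detected well enough to be tested, and 7 passed an adjusted p of 0.05 in edgeR's quasi-likelihood test. Lower were Acly, Hmgcs1, Sc5d and Insig1, and higher were Sqle, Tm7sf2 and Soat1. The 7 are 25% of the 28 genes, against 14.2% of all 15132 genes tested. The 28 were chosen with earlier results of these data known, so these shares are a description with no test. In the higher direction 3 passed (8.43% of all genes), and in the lower direction 4 (5.75%). Log2 fold changes (hemin over TGF-β1 alone) ran from -0.31 to 0.33 with a median of -0.026, and the median of all tested genes was -0.0025. Their sign was positive in 13 and negative in 15. All 28 were under 0.5 in size, as were 85.7% of all tested genes, and the median size was 0.11 against 0.15 for all tested genes. In Acly, Sc5d and Soat1, 3 of the 28, the 2 groups of libraries did not overlap in CPM, which held for 10.2% of all tested genes (6.29% with hemin higher and 3.93% with hemin lower). A further 5 genes had an unadjusted p under 0.05 without passing the adjustment, making 12 of 28, against 25.9% of all tested genes.

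**Figure D1:**
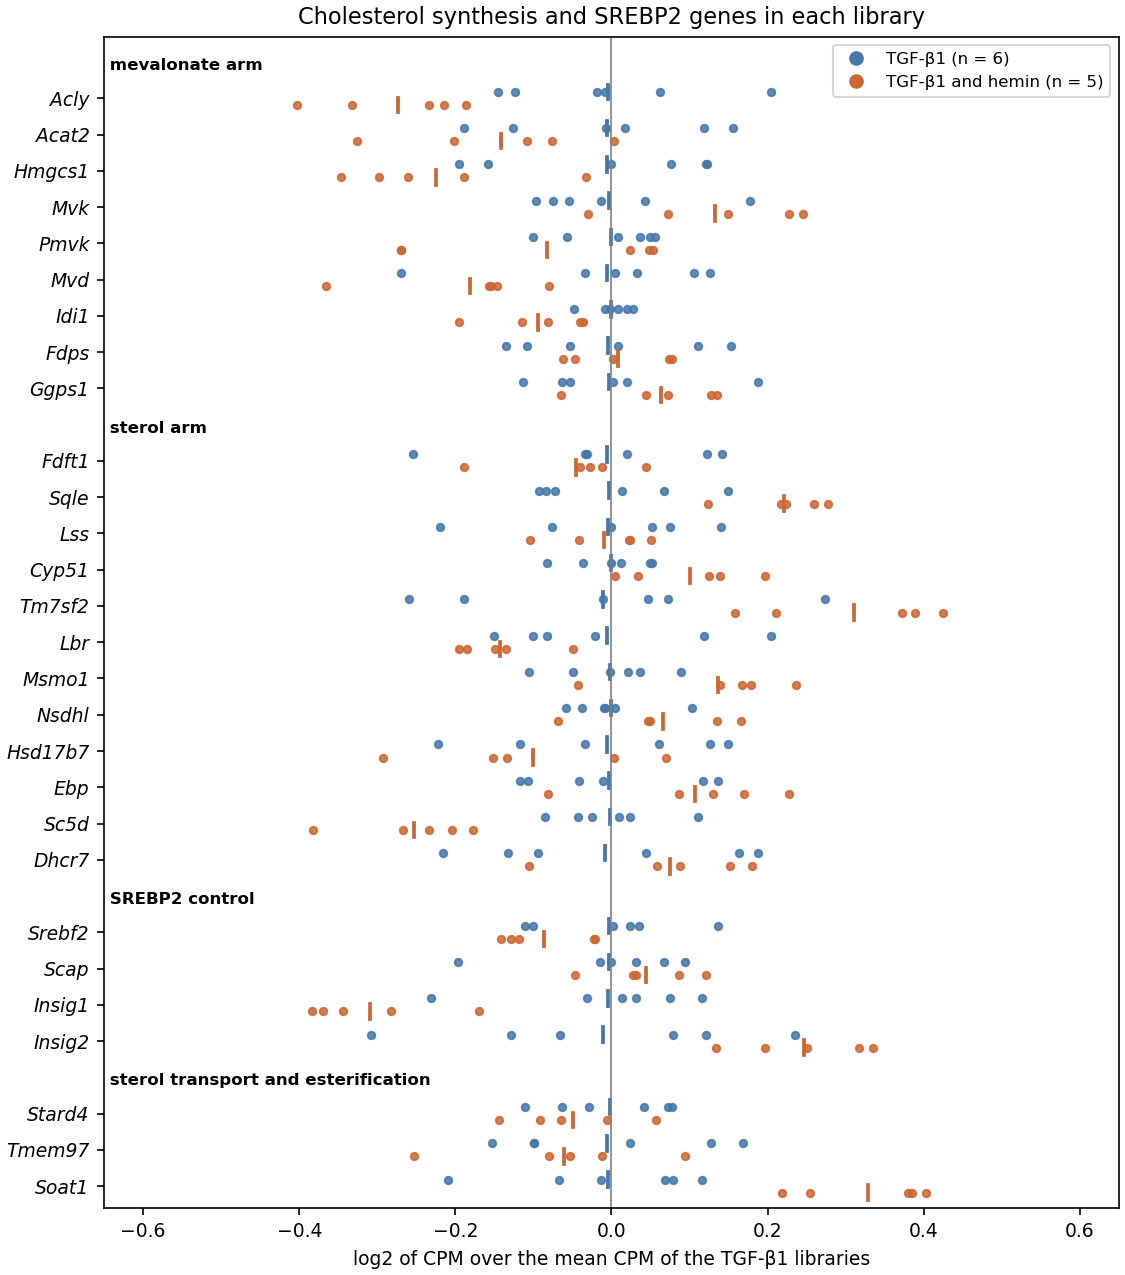
Each point is 1 library, placed by the log2 of its CPM over the mean CPM of the 6 TGF-β1 libraries, for the 28 genes grouped by role; vertical ticks are group means. The hemin points of Acly and Sc5d lie entirely to the left of the TGF-β1 points and those of Soat1 entirely to the right, and no other gene separates the groups.

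The count and its direction depended on how libraries were scaled. Scaling by total count alone, without TMM, moved the median log2 fold change of all tested genes to -0.12, and then 1 of the 28 was higher and 10 lower, with a median of -0.14. On log2(FPKM + 1) in limma, where the authors' FPKM were used as deposited, 1 was higher and 9 lower, with a median of -0.11 for the 28 and -0.085 for all genes. Of all called genes 59.5% were higher with TMM, 22.8% with total count and 23.9% with FPKM. Median-of-ratios scaling, on counts or on FPKM, gave 3 higher and 4 lower. Relative to the median of all genes, the 28 genes' median was -0.023 with TMM and -0.023 with total count. Acly, Sc5d and Insig1 were lower and Soat1 higher in all 22 alternatives run.

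**Figure D2:**
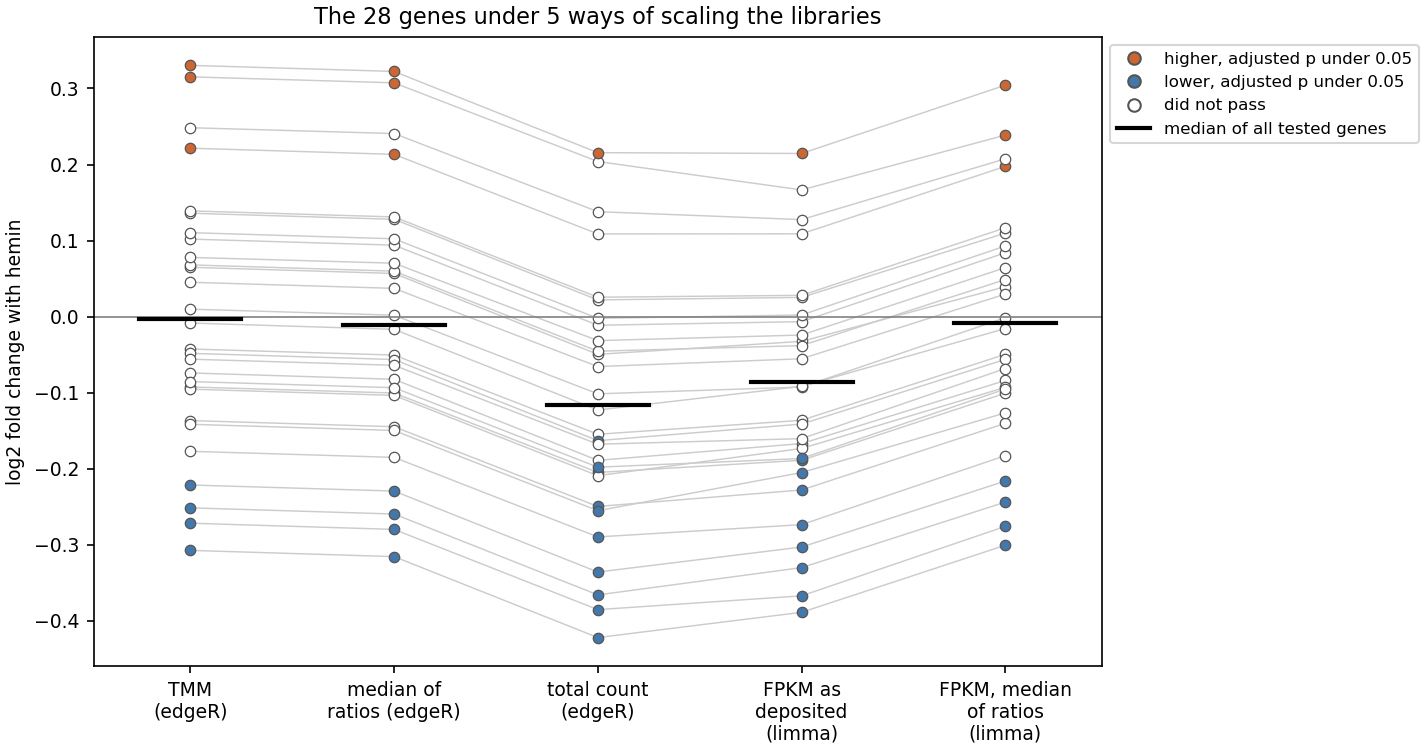
Each point is the log2 fold change (hemin over TGF-β1 alone) of 1 of the 28 genes under 5 ways of scaling the libraries, coloured where the adjusted p is under 0.05. Total count and deposited FPKM shift the whole set downward, giving 1 higher with 10 or 9 lower, while TMM and median-of-ratios scaling give 3 higher and 4 lower.

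SREBP2 acts through short sterol regulatory elements near the start of its targets, usually beside a CCAAT box bound by NF-Y. In mouse RefSeq windows (build GRCm38.p6) from 250 bases before to 50 after the start, 24 of the 28 genes had a sequence, all but Sqle, Fdft1, Fdps and Stard4. The element TCACNCCAC (N is any base), searched on both strands, was found in 1 of the 24, Hmgcs1, 137 bases before the start, and in 1.44% of 27025 genes with a window. CCAAT, or ATTGG where it lies on the other strand, was found in 22 of 24 (91.7%) and in 41.1% of all genes. The 2 motifs share no overlap in the Hmgcs1 window. The windows of 4 genes that passed the test, 2 lower and 2 higher, are shown to set their promoters side by side; capitals mark the sterol regulatory element and the CCAAT or ATTGG letters.
Hmgcs1 promoter (chr13:119690101-119690400, plus strand): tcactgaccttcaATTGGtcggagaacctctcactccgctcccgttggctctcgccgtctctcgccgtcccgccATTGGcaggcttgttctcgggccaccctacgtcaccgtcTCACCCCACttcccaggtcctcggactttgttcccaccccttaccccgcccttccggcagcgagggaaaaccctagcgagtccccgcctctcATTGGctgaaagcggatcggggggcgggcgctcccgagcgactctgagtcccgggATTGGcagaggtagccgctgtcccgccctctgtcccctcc
Insig1 promoter (chr5:28071162-28071461, plus strand): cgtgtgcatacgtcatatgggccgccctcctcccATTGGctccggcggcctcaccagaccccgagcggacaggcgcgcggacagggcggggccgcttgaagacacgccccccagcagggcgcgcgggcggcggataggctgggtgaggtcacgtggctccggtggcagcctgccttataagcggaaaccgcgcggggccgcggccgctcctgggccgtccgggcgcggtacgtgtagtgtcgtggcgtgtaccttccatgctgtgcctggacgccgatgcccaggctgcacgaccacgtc
Soat1 promoter (chr1:156474279-156474578, minus strand): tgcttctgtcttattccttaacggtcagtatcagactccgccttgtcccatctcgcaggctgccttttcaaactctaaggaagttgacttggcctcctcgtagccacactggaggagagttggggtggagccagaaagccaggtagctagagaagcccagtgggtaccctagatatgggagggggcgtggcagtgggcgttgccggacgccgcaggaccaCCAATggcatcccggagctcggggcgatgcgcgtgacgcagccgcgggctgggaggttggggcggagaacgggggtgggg
Tm7sf2 promoter (chr19:6067801-6068100, minus strand): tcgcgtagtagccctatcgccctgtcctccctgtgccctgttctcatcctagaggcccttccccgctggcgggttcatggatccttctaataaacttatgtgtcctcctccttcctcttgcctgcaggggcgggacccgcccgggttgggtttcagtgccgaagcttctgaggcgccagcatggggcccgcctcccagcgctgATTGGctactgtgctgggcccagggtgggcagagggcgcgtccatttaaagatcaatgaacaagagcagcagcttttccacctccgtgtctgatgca
Hmgcs1 carries ATTGG, at 237, 176 and 45 bases before the start and 10 after it, with TCACCCCAC between those at 176 and 45. Insig1 has ATTGG at 216, Soat1 CCAAT at 30 and Tm7sf2 ATTGG at 47 bases before the start. CCAAT letters were present in genes that fell and in genes that rose. Only these exact letters were searched, so elements with other letters in the same window would be missed. A match describes letters in this window, and its absence says nothing of binding here or elsewhere.

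In the mevalonate arm none of 9 genes rose and 2 fell, Acly and Hmgcs1. Over all tested genes, beside which the counts of each role stand, 8.43% rose and 5.75% fell. In the rising direction 0 of the 9 had an unadjusted p under 0.05 in edgeR and 0 passed in DESeq2. Acly ran from 209 through a median of 229 to 266 CPM with TGF-β1 alone and stood at 196, 203, 175, 184 and 199 CPM in hemin replicates 2 to 6; Acly encodes ATP citrate lyase, which makes cytosolic acetyl-CoA, and averaged 42.3 ± 4.83 and 32.5 ± 2.62 FPKM without and with hemin (mean ± SD), the highest of the 9 without hemin and just under Fdps, at 33.3 FPKM, with it. All 5 hemin libraries lay below the lowest TGF-β1 library. Acly (ENSMUSG00000020917, chromosome 11, 100367179 to 100418826, minus strand, build GRCm39 as for all gene positions here) fell by 17.2%, from 231 ± 20.9 to 191 ± 11.8 CPM (log2 change of -0.27 ± 0.063, SE; adjusted p = 0.00707 in edgeR). Hmgcs1 ran from 56.5 through a median of 66.5 to 70.4 CPM with TGF-β1 alone and stood at 63.3, 54.0, 52.7, 50.9 and 56.8 CPM in hemin replicates 2 to 6. Hmgcs1 (ENSMUSG00000093930, chromosome 13, 120151915 to 120169796, plus strand), HMG-CoA synthase, is the gene with the sterol element printed above. In hemin replicates 3, 4 and 5 it was below every TGF-β1 library, while replicates 2 and 6 lay within their range. Its mean went from 64.7 ± 6.16 to 55.5 ± 4.84 CPM (log2 change of -0.22 ± 0.071, SE; adjusted p = 0.0496 in edgeR). That call was lost when TGF-β1 replicate 3, 4, 5 or 6, or hemin replicate 3, 4, 5 or 6, was left out, with an adjusted p of up to 0.133 in edgeR and log2 fold changes from -0.27 to -0.19. It was also lost with no filter on low counts (edgeR adjusted p 0.0971), with the replicate number as a block (0.0859) and without hemin replicates 5 and 6 together (0.220).

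Mvd and Idi1, which follow on the path to farnesyl diphosphate, had unadjusted p-values under 0.05 that did not pass the adjustment. Mvd ran from 52.0 through a median of 63.4 to 68.3 CPM with TGF-β1 alone and stood at 56.2, 48.6, 56.3, 59.3 and 56.6 CPM in hemin replicates 2 to 6. Mvd encodes mevalonate diphosphate decarboxylase, and the hemin libraries lay within the TGF-β1 range except replicate 3, which was the lowest of all 11. Its group means were 62.6 ± 5.88 and 55.4 ± 4.00 CPM (log2 change of -0.18 ± 0.069, SE; adjusted p = 0.108 in edgeR), and without TGF-β1 replicate 5, the lowest of its group, the edgeR adjusted p was 0.0174 with a log2 fold change of -0.23. Idi1 ran from 59.5 through a median of 61.7 to 62.7 CPM with TGF-β1 alone and stood at 60.0, 59.8, 56.8, 53.7 and 58.2 CPM in hemin replicates 2 to 6. Idi1, isopentenyl diphosphate isomerase, was below every TGF-β1 library in hemin replicates 4, 5 and 6, at group means of 61.5 ± 1.14 and 57.7 ± 2.58 CPM (log2 change of -0.093 ± 0.043, SE; adjusted p = 0.183 in edgeR). The other 5 genes of the arm did not pass and overlapped between groups. Acat2, the cytosolic thiolase at the entry of the pathway, had a log2 fold change of -0.14 (95% interval -0.29 to 0.020), and Pmvk, phosphomevalonate kinase, a log2 fold change of -0.074 (-0.25 to 0.11). Mvk, mevalonate kinase, stood at 0.14 (-0.016 to 0.29), Ggps1, which makes geranylgeranyl diphosphate, at 0.065 (-0.094 to 0.22), and Fdps, farnesyl diphosphate synthase, at 0.0098 (-0.11 to 0.13). Ggps1 lies opposite Arid4b on the other strand with a similar count, and the strand setting of the counting is not given in the sources used here, so its value is uncertain.

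**Figure D3:**
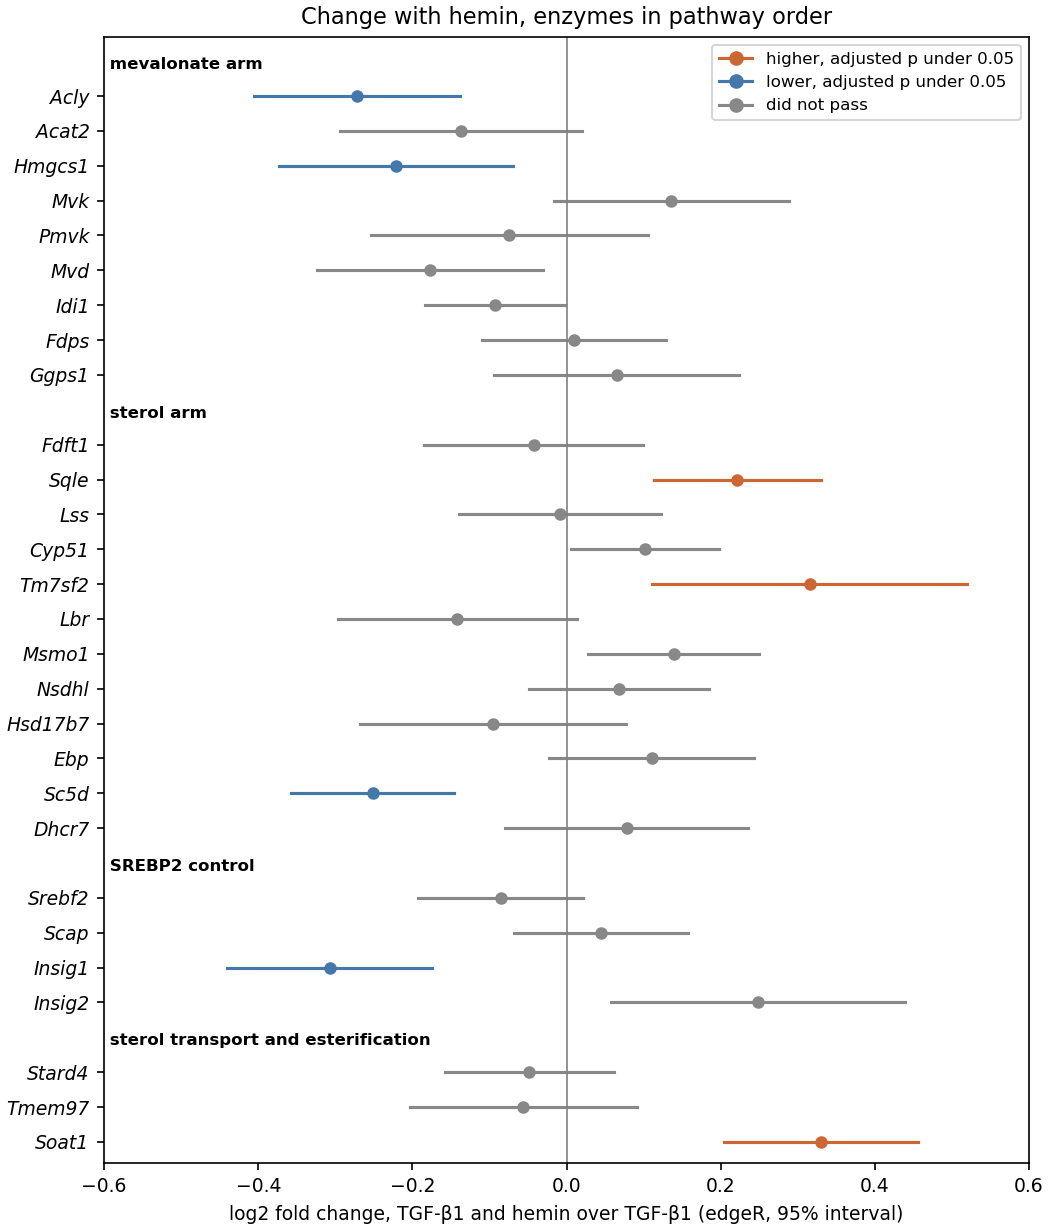
Log2 fold changes (hemin over TGF-β1 alone, edgeR) with 95% intervals for the 28 genes, enzymes in pathway order, coloured by whether the adjusted p is under 0.05 and in which direction. Falls that passed stand at Acly, Hmgcs1, Sc5d and Insig1 and rises at Sqle, Tm7sf2 and Soat1, and all point values lie between -0.31 and 0.33.

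In the sterol arm 2 of 12 genes rose, Sqle and Tm7sf2, and 1 fell, Sc5d (8.43% and 5.75% of all tested genes). Sqle ran from 88.3 through a median of 92.3 to 104 CPM with TGF-β1 alone and stood at 113, 114, 103, 109.9 and 109 CPM in hemin replicates 2 to 6. Sqle (ENSMUSG00000022351, chromosome 15, 59186926 to 59203041, plus strand), squalene epoxidase, catalyses a rate-limiting oxygen-dependent step at the head of this arm. Only hemin replicate 4 lay within the TGF-β1 range, and the other 4 were above it. Sqle rose from 94.1 ± 6.49 to 109.7 ± 4.44 CPM (log2 change of 0.22 ± 0.051, SE; adjusted p = 0.00702 in edgeR). With total-count scaling its log2 fold change was 0.11 and its edgeR adjusted p 0.216, and without hemin replicates 5 and 6, an alternative chosen after seeing the data, 0.22 and 0.0559. In limma on the deposited FPKM its log2 change was 0.11 with either pseudocount (1 or 0.1), and its adjusted p 0.179. Tm7sf2 ran from 12.2 through a median of 14.7 to 17.6 CPM with TGF-β1 alone and stood at 18.8, 16.2, 16.8, 19.5 and 19.0 CPM in hemin replicates 2 to 6. Tm7sf2 (ENSMUSG00000024799, chromosome 19, 6112851 to 6117880, minus strand), a sterol C14-reductase, was above every TGF-β1 library in hemin replicates 2, 5 and 6 and within their range in replicates 3 and 4. Its mean went from 14.6 ± 1.95 to 18.1 ± 1.46 CPM (log2 change of 0.32 ± 0.10, SE; adjusted p = 0.0387 in edgeR). The call was lost without TGF-β1 replicate 2, 3, 4 or 5 and without hemin replicate 2, 4, 5 or 6, with an edgeR adjusted p of up to 0.0974, and with total-count scaling, where the adjusted p was 0.144 and the log2 fold change 0.20. It was lost too with no filter on low counts (edgeR adjusted p 0.0647), without hemin replicates 5 and 6 together (0.250), and in limma on log2(FPKM + 1) and log2(FPKM + 0.1), where the adjusted p was 0.0989 and 0.0979 and the log2 change 0.17 and 0.21. Tm7sf2 overlaps Vps51 on the same strand, whose mean count was 3.43 times its own, so shared reads are possible.

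Sc5d fell. Sc5d ran from 59.9 through a median of 63.2 to 68.6 CPM with TGF-β1 alone and stood at 56.2, 48.8, 54.0, 55.1 and 52.8 CPM in hemin replicates 2 to 6. Sc5d (ENSMUSG00000032018, chromosome 9, 42162891 to 42175552, minus strand), lathosterol C5-desaturase, acts near the end of the arm, and all 5 hemin libraries were below the lowest TGF-β1 library. Its mean fell by 16.0%, from 63.5 ± 3.01 to 53.4 ± 2.87 CPM (log2 change of -0.25 ± 0.050, SE; adjusted p = 0.00233 in edgeR). Cyp51 ran from 119 through a median of 127 to 131 CPM with TGF-β1 alone and stood at 138, 129, 145, 127 and 139 CPM in hemin replicates 2 to 6. Cyp51, the heme-containing P450 enzyme lanosterol demethylase, was above every TGF-β1 library in hemin replicates 2, 4 and 6 and within their range in replicates 3 and 5. Its change did not pass (log2 change of 0.10 ± 0.045, SE; adjusted p = 0.162 in edgeR), with group means of 126 ± 4.49 and 135 ± 7.42 CPM; its gene overlaps Akap9 on the other strand. Msmo1 ran from 101 through a median of 109.8 to 116 CPM with TGF-β1 alone and stood at 128, 106, 122, 120.1 and 123 CPM in hemin replicates 2 to 6. Msmo1, the sterol C4-methyl oxidase, was above all TGF-β1 libraries in every hemin library except replicate 3. Its group means of 109 ± 5.14 and 120.1 ± 8.49 CPM did not differ past the threshold (log2 change of 0.14 ± 0.052, SE; adjusted p = 0.0934 in edgeR), but without hemin replicate 3 the edgeR adjusted p was 0.0152 and the log2 fold change 0.18. Ebp ran from 64.4 through a median of 68.6 to 76.8 CPM with TGF-β1 alone and stood at 74.1, 66.0, 78.5, 81.7 and 76.4 CPM in hemin replicates 2 to 6. Ebp, the sterol isomerase and the most abundant gene of the arm by FPKM (29.1 ± 1.55 and 29.2 ± 1.99 FPKM), overlapped between groups and did not pass (log2 change of 0.11 ± 0.063, SE; adjusted p = 0.295 in edgeR).

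The other 6 genes of the sterol arm did not pass. Lbr, the nuclear envelope protein that shares the C14-reductase step with Tm7sf2, had a log2 fold change of -0.14 (95% interval -0.30 to 0.013), with the sign opposite to that of Tm7sf2. Nsdhl and Hsd17b7, which complete the C4-demethylation that Msmo1 starts, stood at 0.068 (-0.048 to 0.18) and -0.10 (-0.27 to 0.077). Dhcr7, the final 7-dehydrocholesterol reductase, stood at 0.078 (-0.080 to 0.24) and Lss, lanosterol synthase, at -0.0084 (-0.14 to 0.12). Fdft1, squalene synthase, stood at -0.043 (-0.18 to 0.10), but Ctsb on the other strand overlaps it with a mean count 136 times as high, which makes that value uncertain. Over all 28 genes, 21 did not pass, and for 19 of them the 95% interval lay within 0.3 either way on the log2 scale. Over all 21 the bounds ran from -0.32 to 0.44.

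Among the 4 genes that control SREBP2, Insig1 fell and the other 3 did not pass. Insig1 ran from 49.3 through a median of 58.8 to 62.8 CPM with TGF-β1 alone and stood at 44.4, 45.6, 44.8, 47.6 and 51.5 CPM in hemin replicates 2 to 6. Insig1 (ENSMUSG00000045294, chromosome 5, 28276361 to 28283660, plus strand) is both a target of SREBP2 and the protein that retains it, and 4 hemin libraries were below all TGF-β1 libraries, with replicate 6 just above TGF-β1 replicate 2. Its mean fell by 19.2%, from 57.9 ± 4.69 to 46.8 ± 2.92 CPM (log2 change of -0.31 ± 0.063, SE; adjusted p = 0.00289 in edgeR), the largest fall of the 28 genes. Insig2 ran from 16.5 through a median of 20.6 to 24.1 CPM with TGF-β1 alone and stood at 25.8, 25.5, 24.3, 22.4 and 23.4 CPM in hemin replicates 2 to 6. Insig2, its paralog with the same retaining role, was above every TGF-β1 library in hemin replicates 2, 3 and 4. The means of Insig2 were 20.4 ± 2.72 and 24.3 ± 1.40 CPM and did not differ past the threshold (log2 change of 0.25 ± 0.090, SE; adjusted p = 0.0810 in edgeR), although without TGF-β1 replicate 2, the highest of its group, the edgeR adjusted p was 0.0313 with a log2 fold change of 0.30. Srebf2 ran from 265 through a median of 289 to 315 CPM with TGF-β1 alone and stood at 282, 282, 262, 259.7 and 264 CPM in hemin replicates 2 to 6. Srebf2, which encodes SREBP2 itself, was the most abundant of the 4 by FPKM (38.5 ± 2.90 and 33.6 ± 1.83 FPKM), overlapped between groups and did not pass (log2 change of -0.085 ± 0.050, SE; adjusted p = 0.319 in edgeR). Scap, its escort protein, had a log2 fold change of 0.045 (95% interval -0.068 to 0.16). RNA levels do not report cleavage or nuclear entry of the SREBP2 protein.

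Of the 3 genes of transport and esterification, Soat1 rose. Soat1 ran from 177 through a median of 209 to 222 CPM with TGF-β1 alone and stood at 267, 238, 266, 244 and 271 CPM in hemin replicates 2 to 6. Soat1 (ENSMUSG00000026600, chromosome 1, 156252095 to 156301901, minus strand) encodes the enzyme that esterifies cholesterol for storage in macrophages, and all 5 hemin libraries were above the highest TGF-β1 library. Its mean rose from 205 ± 16.6 to 257 ± 14.96 CPM (log2 change of 0.33 ± 0.059, SE; adjusted p = 0.00102 in edgeR), the largest rise of the 28. Tmem97 ran from 76.8 through a median of 83.3 to 96.0 CPM with TGF-β1 alone and stood at 84.7, 71.7, 82.4, 91.2 and 80.8 CPM in hemin replicates 2 to 6. Tmem97, the sigma-2 receptor that binds NPC1, was the most abundant of all 28 by FPKM (59.8 ± 3.98 and 53.4 ± 4.17 FPKM), and its groups overlapped (log2 change of -0.056 ± 0.069, SE; adjusted p = 0.695 in edgeR). Stard4, a cytosolic sterol carrier, had a log2 fold change of -0.048 (95% interval -0.16 to 0.061).

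Summed over the 28 genes, CPM lay close together in the groups while FPKM, which are not TMM-scaled, were lower with hemin. The summed CPM was 2250 ± 56.3 with TGF-β1 alone and 2252 ± 47.4 with hemin (mean ± SD, n = 6 and 5). The summed FPKM was 504.5 ± 13.1 and 460.3 ± 12.7. No test was run on the sums. By mean FPKM, which ranks genes per length, the leading genes without hemin were Tmem97, Acly, Srebf2 and Fdps, at 59.8, 42.3, 38.5 and 35.5. With hemin the order was Tmem97, Srebf2, Fdps and Acly, at 53.4, 33.6, 33.3 and 32.5. The lowest gene was Tm7sf2 without hemin, at 3.16, and Ggps1 with it, at 3.17. Within groups the median coefficient of variation of CPM of the 28 genes was 8.11% with TGF-β1 alone and 6.01% with hemin. Over all tested genes it was 11.8% and 11.3%, and these sets were not matched for abundance. Libraries did not keep a fixed order. TGF-β1 replicate 3 was the highest of its group for 11 genes and the lowest for 0, replicate 2 the lowest for 8, hemin replicate 3 the lowest for 12, and hemin replicate 5 the highest for 8.

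Ratios of FPKM between 2 genes within a library are free of library scaling. The pairs were chosen after the values were seen, so the ratios are a description with no test. The ratio of Sqle to Hmgcs1 lay between 1.08 and 1.36 (median 1.19) without hemin and was 1.47, 1.75, 1.61, 1.79 and 1.598 in hemin replicates 2 to 6. Every hemin library was above every TGF-β1 library, at means of 1.64 ± 0.126 against 1.21 ± 0.103. The ratio of Soat1 to Insig1 lay between 1.02 and 1.20 (median 1.14) without hemin and was 1.901, 1.65, 1.88, 1.62 and 1.66 in hemin replicates 2 to 6, at means of 1.74 ± 0.136 against 1.12 ± 0.0707, again without overlap. For Insig2 to Insig1 the ratio lay between 0.251 and 0.434 without hemin and between 0.405 and 0.517 with it. Means were 0.317 ± 0.0622 and 0.464 ± 0.0494. The groups overlapped through TGF-β1 replicate 2, at 0.434, while the other TGF-β1 libraries lay between 0.251 and 0.315.

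**Figure D4:**
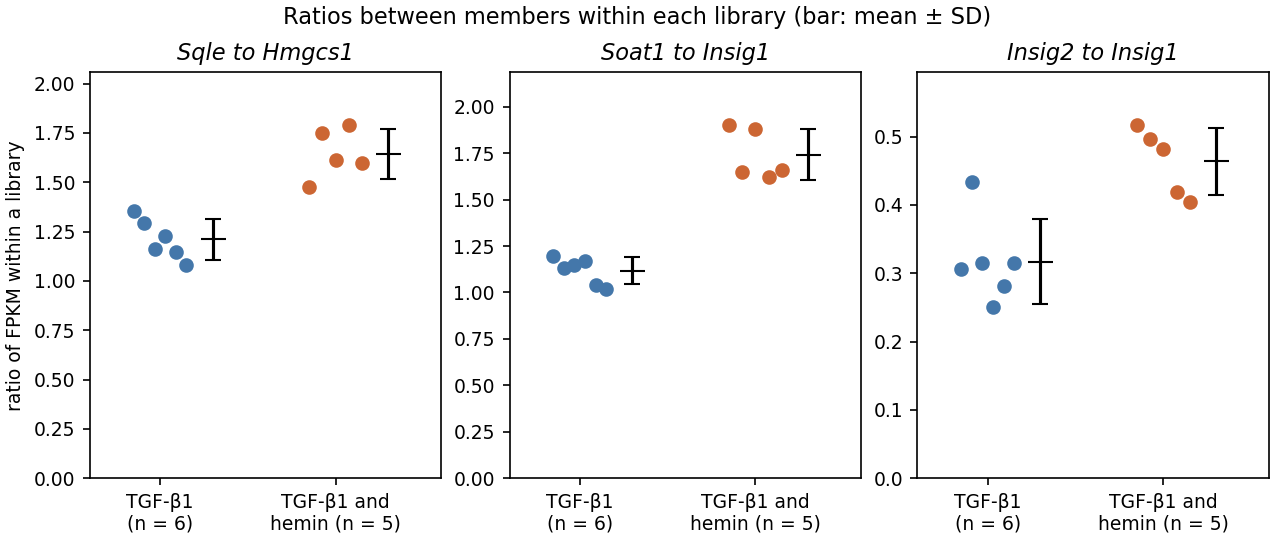
Ratios of FPKM within each library for 3 pairs of genes, with points for the 6 TGF-β1 and 5 hemin libraries and bars for mean ± SD. Sqle to Hmgcs1 (1.21 against 1.64) and Soat1 to Insig1 (1.12 against 1.74) do not overlap between groups, and Insig2 to Insig1 overlaps.

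Over all tested genes 8.43% rose and 5.75% fell in edgeR, and 25.9% had an unadjusted p under 0.05. Each count that follows stands beside those shares. Of 8 other genes of the pathway, none passed in edgeR, with 2 at an unadjusted p under 0.05. In DESeq2 1 of the 8 was past the threshold. Of 15 genes of SREBP1 and fatty acid synthesis, which draw on the acetyl-CoA that Acly makes, 1 rose and 3 fell in edgeR. The list median was 0.046 on the log2 scale. In DESeq2 1 of the 15 rose and 5 fell. Me1, malic enzyme, a source of NADPH, went from 23.5 ± 1.801 to 52.7 ± 3.85 CPM (log2 change 1.17 ± 0.067, SE; adjusted p = 6.47e-09 in edgeR). Fasn, fatty acid synthase, went from 258 ± 27.5 to 208 ± 22.8 CPM (log2 change -0.31 ± 0.079, SE; adjusted p = 0.0134 in edgeR), and Acaca, acetyl-CoA carboxylase, from 49.8 ± 5.01 to 40.8 ± 1.56 CPM (log2 change -0.28 ± 0.066, SE; adjusted p = 0.00703 in edgeR). Elovl6, a fatty acid elongase, went from 12.1 ± 1.75 to 9.13 ± 0.894 CPM (log2 change -0.41 ± 0.11, SE; adjusted p = 0.0185 in edgeR), and its edgeR adjusted p was 0.0543 without hemin replicate 4. Of 12 genes of lysosomal and intracellular sterol traffic 2 rose and 0 fell in edgeR, and 2 rose and 0 fell in DESeq2. At an unadjusted p under 0.05 in edgeR there were 4 rises and 2 falls. Lipa, the lysosomal acid lipase that frees cholesterol from lipoprotein esters, went from 815 ± 39.5 to 1012 ± 43.2 CPM (log2 change 0.31 ± 0.047, SE; adjusted p = 0.000233 in edgeR), and Nceh1, a neutral cholesterol ester hydrolase, from 170.2 ± 10.2 to 199 ± 7.01 CPM (log2 change 0.22 ± 0.047, SE; adjusted p = 0.00398 in edgeR). With total-count scaling Nceh1 was at 0.11 with an edgeR adjusted p of 0.120. Of 6 genes of LXR and sterol efflux 1 rose and 1 fell in edgeR, and 2 rose and 1 fell in DESeq2. Abcg1, a cholesterol exporter, went from 45.7 ± 3.36 to 60.7 ± 4.48 CPM (log2 change 0.41 ± 0.062, SE; adjusted p = 0.000225 in edgeR), and Apoe, the lipoprotein that carries exported cholesterol, from 1449.9 ± 370.4 to 955 ± 95.7 CPM (log2 change -0.60 ± 0.13, SE; adjusted p = 0.00526 in edgeR). The rows that the deposited table annotates with the KEGG pathway Steroid biosynthesis numbered 18, of which 17 were tested. In edgeR 4 rose and 1 fell, with Lipa the only one of these outside the 28 genes. In DESeq2 4 rose and 2 fell.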

How the data were processed

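The data are RNA sequencing of 11 macrophage libraries in 1 deposited table. Per the submitters' processing notes, the tools were HISAT2 2.2.1, StringTie 2.1.6, DESeq2, FastQC 0.11.9 and cutadapt 1.9 and the build GRCm39, listed with no role or order. The table holds whole-number counts per gene, not normalized, and FPKM, both made by the authors; no annotation release, counting tool or strand setting is given in the sources used here, although the labels' protocols describe a uracil-marked second strand. Libraries were grouped by title prefix. The labels do not say that replicates came from separate animals or cultures, so p-values measure the spread between these libraries, which may be technical; within groups every one of 25 pairs differed by more than sampling noise (chi-square per degree of freedom 27.1 to 191).

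In R 4.3.3, edgeR 4.0.16 (filterByExpr, minimum count 10 and minimum total 15; TMM; quasi-likelihood F test; group only) tested 15132 genes, 2-sided, with Benjamini-Hochberg adjustment over all of them and a threshold of 0.05. The standard error is the log2 fold change over the square root of F. Alternatives (22) used DESeq2 1.42.0, limma 3.58.1 on log2(FPKM + 1) or log2(FPKM + 0.1), other scalings and filters, a replicate block, and each library left out. The main edgeR fit was also run on simulated data, without its filter, and the alternatives were not. Values per library are given for genes with adjusted or unadjusted p under 0.05 and the most abundant of each role; of other lists, genes that passed, up to 3 each way, or the most abundant. Single genes of the list of other pathway genes are not reported here. Members and lists were chosen with earlier results of these data known. Promoter sequences are from RefSeq (GRCm38.p6); its coordinates were not mixed with those of the table.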

Additional observations from a re-analysis of the deposited data

Results flagged for a closer look

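Mvd, mevalonate diphosphate decarboxylase, was lower in hemin replicate 3 than in the other 4 hemin libraries, at 48.6 CPM against 56.2 to 59.3 CPM. The gap to the nearest library was 0.712 of the range of the group, past Dixon's 95% critical value for 5 samples. It was the only 1 of 56 groups of values (28 genes in 2 groups) to pass, and chance alone passes about 1 in 20.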

How the results depend on the processing

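Leaving out each library in turn left 5 to 7 of the 28 genes past the threshold, 2 to 4 higher and 3 to 4 lower, with a median log2 fold change of -0.032 to -0.0092. Total-count scaling gave 11 (1 higher, 10 lower; median -0.14), and limma on log2(FPKM + 1) and log2(FPKM + 0.1) gave 1 higher and 9 lower each, with medians of -0.11 and -0.13. Without hemin replicates 5 and 6 together, chosen after seeing the data, 4 passed, 1 higher and 3 lower. The other alternatives gave 5 to 7 past the threshold, 2 to 3 higher and 3 to 4 lower. The labels do not say whether equal replicate numbers pair libraries. Correlations of deviations ran from -0.0853 to 0.109 over the 5 pairs of equal number, and from -0.0742 to 0.0800 over the other pairs. Of the 5 hemin libraries, 2 correlated best with their own number. Correlations this weak cannot decide whether libraries were paired. With the number as a block 3 were higher and 3 lower, and Hmgcs1 had an adjusted p of 0.0859. The sign of genes that did not pass turned under total count, FPKM + 1 and FPKM + 0.1: Fdps -0.10, -0.093 and -0.10, Ggps1 -0.050, -0.033 and -0.041, Cyp51 -0.011, -0.0066 and -0.0068, Nsdhl -0.045, -0.038 and -0.041, Dhcr7 -0.032, -0.024 and -0.025 and Scap -0.066, -0.055 and -0.060; and Ebp -0.0022 under total count. Fdps was -6.0e-05 with a mean FPKM of at least 1 and -0.0014 on median-of-ratios FPKM. With a library left out, Fdps ran from -0.016 to 0.038 and Lss from -0.053 to 0.021. Over all alternatives the other pathway genes had 0 to 1 higher and 0 to 2 lower, fatty acid genes 1 to 2 and 2 to 5, sterol traffic 1 to 3 and 0 to 2, and LXR genes 1 to 2 and, in each, 1. The cause was not tested. Intervals of the genes that did not pass limit what depth and 11 libraries could show.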

Other observations

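The mevalonate pathway also feeds protein prenylation and dolichol. The deposited table annotates 13 rows outside the 28 genes with the KEGG pathway Terpenoid backbone biosynthesis. Of these, 1 rose and 0 fell with hemin in edgeR, with 3 rises and 1 fall at an unadjusted p under 0.05. Over all tested genes 8.43% rose and 5.75% fell in edgeR. In DESeq2 1 of the 13 rose and 0 fell. Rce1, the endoprotease that trims prenylated proteins, went from 22.7 ± 2.88 to 27.3 ± 0.706 CPM (log2 change of 0.26 ± 0.082, SE; adjusted p = 0.0424 in edgeR; n = 6 and 5), with all 5 hemin libraries above the TGF-β1 mean and an overlap between groups. Its call was lost in edgeR without TGF-β1 replicate 1, 4, 5 or 6 and without any of the 5 hemin libraries, with an adjusted p of up to 0.103. Fnta, a subunit of farnesyl and geranylgeranyl transferases, stood at 34.2 ± 1.34 and 37.9 ± 1.95 CPM (log2 change of 0.15 ± 0.053, SE, with adjusted p = 0.0847 in edgeR). Its hemin libraries lay narrowly above all TGF-β1 libraries, with a lowest value of 35.64 CPM against a highest of 35.58. Of all tested genes, 6.29% did not overlap and were higher with hemin. The dolichol genes Dhdds and Nus1 stood at log2 fold changes of 0.020 (95% interval -0.074 to 0.11) and 0.062 (-0.042 to 0.17). Fnta, Dhdds and Nus1 were named after their values were seen.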
